A study of Homo sapiens with 22 samples.

Results

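Early redistribution of Jun was examined in K562, an established human leukemia cell line with erythroid features, by comparing chromatin taken 6 h after addition of 25 nM PMA with chromatin at 0 h. The members are all regions of the deposited Jun count table that lie on chromosomes 1 to 22 and X, 137719 of 138731 regions. Both groups were wild type by their labels and held 2 libraries each. The 2 Jun libraries at 72 h of PMA entered the filter on low counts, the scaling and the estimate of the spread. With all 6 Jun libraries 131947 regions passed the filter, and with only the 4 at 0 and 6 h 103399 did. The series has 22 libraries in 11 groups, made with antibodies against Jun, H3K27ac, CTCF and Rad21 from formaldehyde-fixed cells. Sample titles abbreviate the assay as CNR, read here as CUT&RUN, in which an antibody-directed nuclease releases the DNA beside the bound protein. PMA drives this line toward a megakaryocyte-like state, so the question of the comparison is which sites gain or lose Jun early in that change. The model is a single transformed line, the labels do not say whether the libraries of a group came from separate cultures, and p-values therefore measure the spread between these libraries.

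Jun is a basic leucine zipper protein that binds DNA as one arm of a dimer. With a Fos family partner it forms AP-1, which prefers a 7-base palindrome searched here as TGANTCA, and with ATF or CREB family partners it can occupy the 8-base cyclic AMP response element (CRE), TGACGTCA. PMA mimics diacylglycerol and activates protein kinase C, and AP-1 was first described through genes that answer to this ester. H3K27ac is an acetylated histone residue found at active promoters and enhancers, and CTCF is an insulator protein.

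The contrast between these sites is visible in the promoters where Jun changed. The first set below shows 101 bases upstream of a start, around the AP-1 site, for 5 promoters under a region that gained Jun by 6 h. All sequences are the sense strand of the RefSeq table built on GRCh38.p14, 5′ to 3′, and capitals mark the motif.
HRH1 (chr3:11137120-11137220, plus strand): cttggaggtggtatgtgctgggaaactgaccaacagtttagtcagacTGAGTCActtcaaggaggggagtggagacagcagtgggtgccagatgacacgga
SGMS2 (chr4:107824748-107824848, plus strand): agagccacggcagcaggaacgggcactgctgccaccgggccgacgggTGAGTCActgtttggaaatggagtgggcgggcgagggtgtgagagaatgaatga
LOC124901110 (chr5:150780411-150780511, minus strand): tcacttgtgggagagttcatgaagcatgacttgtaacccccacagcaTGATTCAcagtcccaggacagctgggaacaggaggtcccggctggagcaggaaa
TNFSF14 (chr19:6670273-6670373, minus strand): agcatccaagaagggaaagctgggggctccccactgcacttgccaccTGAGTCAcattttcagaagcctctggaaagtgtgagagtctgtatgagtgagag
MFAP2 (chr1:16981675-16981775, minus strand): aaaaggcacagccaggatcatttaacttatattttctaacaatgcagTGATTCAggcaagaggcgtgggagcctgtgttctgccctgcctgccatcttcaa

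The second set shows the same window around a CRE for 5 promoters under a region that lost Jun. They belong to JUND (a Jun family member), DDX10 (an RNA helicase), H3C2 (a replication-dependent histone), ZNF143 (a promoter-binding zinc finger factor) and SCYL2 (a pseudokinase of membrane trafficking).
JUND (chr19:18281768-18281868, minus strand): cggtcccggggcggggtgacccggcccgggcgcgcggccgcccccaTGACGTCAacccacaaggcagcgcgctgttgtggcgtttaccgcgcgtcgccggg
DDX10 (chr11:108664819-108664919, plus strand): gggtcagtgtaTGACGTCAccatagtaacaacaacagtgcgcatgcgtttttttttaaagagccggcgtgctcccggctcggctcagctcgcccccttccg
H3C2 (chr6:26032208-26032308, minus strand): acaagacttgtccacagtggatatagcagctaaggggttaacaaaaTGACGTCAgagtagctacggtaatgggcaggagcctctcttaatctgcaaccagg
ZNF143 (chr11:9460802-9460902, plus strand): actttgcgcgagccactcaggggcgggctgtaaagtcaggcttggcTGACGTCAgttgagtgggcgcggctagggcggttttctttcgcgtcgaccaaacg
SCYL2 (chr12:100267076-100267176, plus strand): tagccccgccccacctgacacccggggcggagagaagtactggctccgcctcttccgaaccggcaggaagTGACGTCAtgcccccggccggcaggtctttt

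The promoter of JUN itself holds neither motif in the form searched. It is shown because its region also lost Jun, and its capitals mark TGACATCA, a CRE-like 8-base site that starts 67 bases upstream of the start and was looked for after the data had been seen.
JUN (chr1:58784060-58784160, minus strand): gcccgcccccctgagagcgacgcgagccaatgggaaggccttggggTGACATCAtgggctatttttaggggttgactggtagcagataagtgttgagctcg

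At the HRH1 promoter (histamine receptor), Jun was 8.75 and 9.75 CPM (counts relative to the size of the library, scaled by TMM) at 0 h, and 37.7 and 47.3 CPM at 6 h. This is a log2 fold change of 2.20 with a standard error (SE) of 0.22 (edgeR adjusted p = 4.74e-07). SGMS2, a sphingomyelin synthase, went from 8.17 and 5.45 CPM to 31.3 and 32.7 CPM, and its log2 fold change was 2.23. TNFSF14, a cytokine of the TNF family, started from 2.04 and 0.717 CPM and reached 10.9 and 14.6 CPM. Both 6 h libraries lay above both 0 h libraries at all 5 AP-1 promoters, and H3K27ac over them rose by log2 values from 2.08 at LOC124901110 to 5.59 at SGMS2. At the JUND promoter, by contrast, Jun stood at 88.2 and 88.7 CPM at 0 h and at 22.9 and 22.1 CPM at 6 h. Its log2 fold change was -1.98 (SE 0.20, edgeR adjusted p = 6.71e-07). DDX10 fell from 57.2 and 63.3 CPM to 13.8 and 19.9 CPM, and H3C2 from 67.5 and 55.9 CPM to 16.3 and 19.7 CPM. Over these 5 CRE promoters the change in H3K27ac was small beside that in Jun, from -0.63 at ZNF143 to 0.06 at DDX10, where it did not pass the test (edgeR adjusted p = 0.69). The JUN promoter region (chr1:58783874-58784652) dropped from 115 and 117 CPM to 25.9 and 39.2 CPM, a log2 fold change of -1.82 (SE 0.21, edgeR adjusted p = 2.8e-06). Its H3K27ac log2 fold change was 0.15 and did not pass the test (edgeR adjusted p = 0.25).

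Total counts in the Jun table ran from 4766421 and 5531183 in the 6 h pair through 7952946 and 8600736 in the 0 h pair to 17245043 and 18883962 in the 72 h pair. One count was worth at most 0.227 CPM. Replicates correlated (log2 CPM) at 0.883 in the 6 h pair, 0.936 in the 0 h pair and 0.970 in the 72 h pair, so the 6 h pair was the least deep and the least alike. The mitochondrial chromosome took 24.0% and 27.7% of counts at 0 h and 21.3% and 18.1% at 6 h. Depth and this share therefore moved with time, and their part in the results was not tested. As a check of the label, regions at a list of erythroid regulator genes had a median H3K27ac level of 32.9 CPM at 0 h, against 5.35 CPM at megakaryocyte and platelet genes, 43.5 CPM at ribosomal protein genes and 3.31 CPM over all regions tested that overlap an H3K27ac region.

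Jun moved in both directions by 6 h. Of 131947 regions that passed a filter on low counts, 33490 (25.4%) were called at an edgeR adjusted p under 0.05, of which 17394 (13.2% of those tested) were higher and 16096 (12.2%) were lower at 6 h. The median log2 fold change was 1.54 among higher regions and -1.37 among lower ones, and 14843 and 12193 of them changed at least 2-fold. Both libraries of one time lay above both of the other in 17347 of the higher and 16094 of the lower regions, and in 44180 of the 98457 regions not called. The balance of directions depends on the scaling. Higher regions were 51.9% of calls with TMM, 66.9% with scaling to total counts and 67.1% with factors from regions that hold a peak in every library, and the centre of all tested regions sat at a log2 fold change of 0.07, 0.26 and 0.28 in the same order. DESeq2 on the same regions called 22019. No region called in one direction was called in the other under any alternative.

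Regions that lost Jun started high, and regions that gained it started near the level of the rest. The median at 0 h was 2.82 CPM over all regions tested and 2.39 CPM over those not called. The median over the higher regions was 2.53 CPM at 0 h and 7.53 CPM at 6 h, while lower regions had medians of 11.1 CPM at 0 h and 4.21 CPM at 6 h. At 72 h the same regions stood at 7.33 and 4.32 CPM, near their 6 h levels. These medians share the 0 h libraries and are given side by side without a test. Among the fifth of regions with the highest mean CPM, 19.5% were called higher and 29.4% lower, and in the fifth with the lowest, 3.35% and 1.49%. The peaks that the authors called in single libraries show the same division, but they come from the libraries that defined the groups and are not separate support. A Jun peak was present in both 0 h libraries at 10.2% of higher regions, 64.0% of lower regions and 18.7% of all regions tested. Peaks in both 6 h libraries covered 36.2%, 18.6% and 13.7% of the same groups. Peaks were in neither 0 h library and both 6 h libraries at 3531 higher regions, 536 regions not called and 4067 of all tested. They were in both 0 h libraries and neither 6 h library at 5110 lower regions, 1832 not called and 6942 of all tested. The 6 h libraries were the least deep, and the part of depth in these peak counts was not tested.

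Gain was mostly away from promoters, and loss was more often at them. A promoter window (250 bases before to 50 after a RefSeq start) was overlapped by 445 higher regions (2.56%), by 2351 lower regions (14.6%) and by 8892 of all tested (6.74%). The median log2 fold change was -0.44 over regions at promoters and 0.11 over the rest. The median distance to the nearest start of a gene was 23 kb for higher, 16.8 kb for lower and 22.6 kb for all regions tested. CTCF peaks of both 0 h libraries lay over 2.25% of higher and 8.57% of lower regions, against 5.88% of all.

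Acetylation moved with Jun, most clearly where Jun was gained. An H3K27ac region of its own deposited table overlapped 11269 higher Jun regions and 12661 lower ones. At the higher regions the median H3K27ac log2 fold change between 6 and 0 h was 2.28, and 9602 (85.2%) were called higher and 314 (2.79%) lower in H3K27ac. At the lower regions the median was -0.63, and 931 (7.35%) were called higher and 8057 (63.6%) lower. Over all 71019 Jun regions with an H3K27ac region the median was 0.33, with 38.1% called higher and 27% lower. The contrast on the side of loss was narrower at promoters. There the median was -0.46 with 68.1% lower at regions that lost Jun, and -0.29 with 49.2% lower at those not called. Away from promoters it was -0.71 with 62.7% lower at regions that lost Jun, and 0.51 with 23.8% lower at all tested. In the H3K27ac table as a whole, 58.6% of 94325 regions tested were called, 32.3% higher and 26.3% lower. The acetylated state before PMA differed as well: H3K27ac peaks in both 0 h libraries covered 4.80% of regions that gained Jun, 54.6% of those that lost it, 15.7% of those not called and 19.0% of all tested. Neighbouring regions can share an H3K27ac region, so these counts are descriptions over regions and not independent observations.

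**Figure D1:**
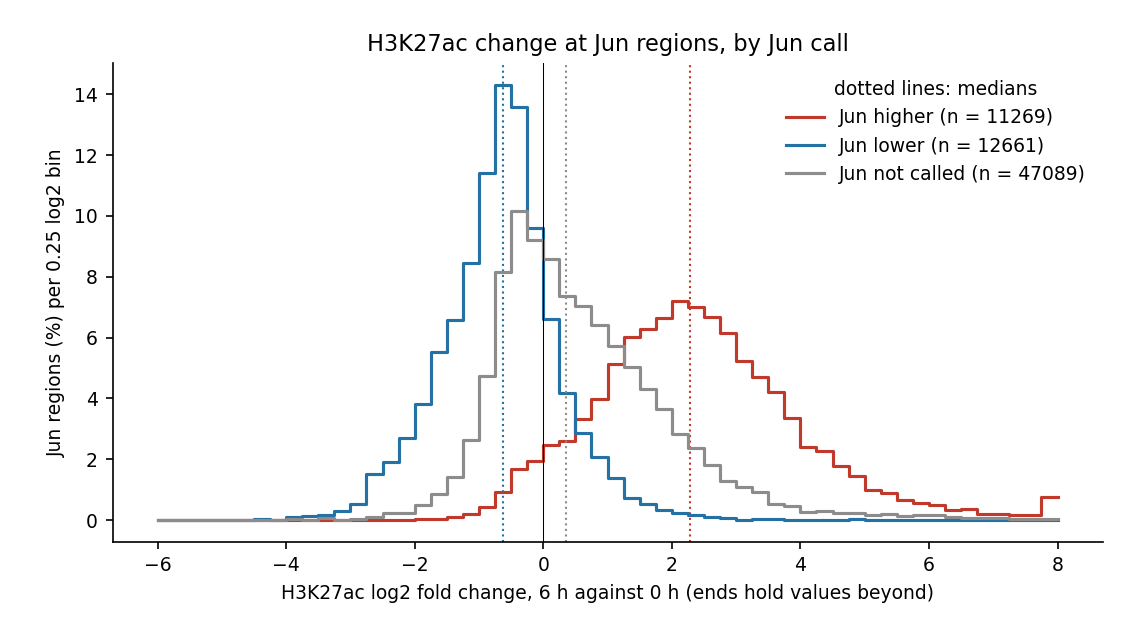
Percentage of Jun regions per 0.25 bin of the H3K27ac log2 fold change at 6 against 0 h, for Jun regions called higher (n = 11269), called lower (n = 12661) and not called (n = 47089). Dotted lines mark the medians of 2.28, -0.63 and 0.35, and the end bins hold all values beyond them.

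AP-1 sites were more frequent in promoters that gained Jun and CREs in those that lost it, although most promoters that lost Jun held neither. Motifs were searched on both strands of 34789 distinct RefSeq promoter windows of 300 bases, of which 11955 lie under a tested Jun region. TGANTCA was present in 203 of 496 windows under a higher region (40.9%) and 152 of 3416 under a lower region (4.45%). It was in 820 of 8043 under a region not called (10.2%), 9.83% of the 11955 windows and 7.69% of all windows. TGACGTCA was present in 1 of 496 windows under a higher region (0.202%) and 396 of 3416 under a lower region (11.6%). It was in 119 of 8043 under a region not called (1.48%), 4.32% of the 11955 windows and 1.84% of all windows. These are descriptions over windows, which can share a region, and a match is not a bound site. In windows of protein-coding genes alone, the AP-1 site was in 34.5% of 264 higher and 3.64% of 2775 lower windows, and the CRE in 0 and 11.5% of them.

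Read from the motif, the 499 windows with a CRE and no AP-1 site had a median Jun log2 fold change of -1.05, with 385 (77.2%) lower and 1 higher. Their median level went from 20.8 to 10.2 CPM, while their median H3K27ac log2 fold change was -0.26. The H3K27ac median was lower, -0.36, in windows with neither motif, and 0.06 in windows with an AP-1 site and no CRE. The 1158 windows with an AP-1 site and no CRE had a median of 0.09, with 202 (17.4%) higher and 141 (12.2%) lower. The 10281 windows with neither had a median of -0.48, with 290 (2.82%) higher and 2877 (28.0%) lower. Their median level at 0 h was 9.18 CPM, below that of the windows with a CRE, and the part of level was not tested. In the 17 windows with both sites the median was -0.88, with 0 higher and 11 lower. Within the searched window, the median CRE match under lower regions was 58 bases upstream of the start, against 56 over all windows, and the median AP-1 match under higher regions 83 bases, against 96.5.

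**Figure D2:**
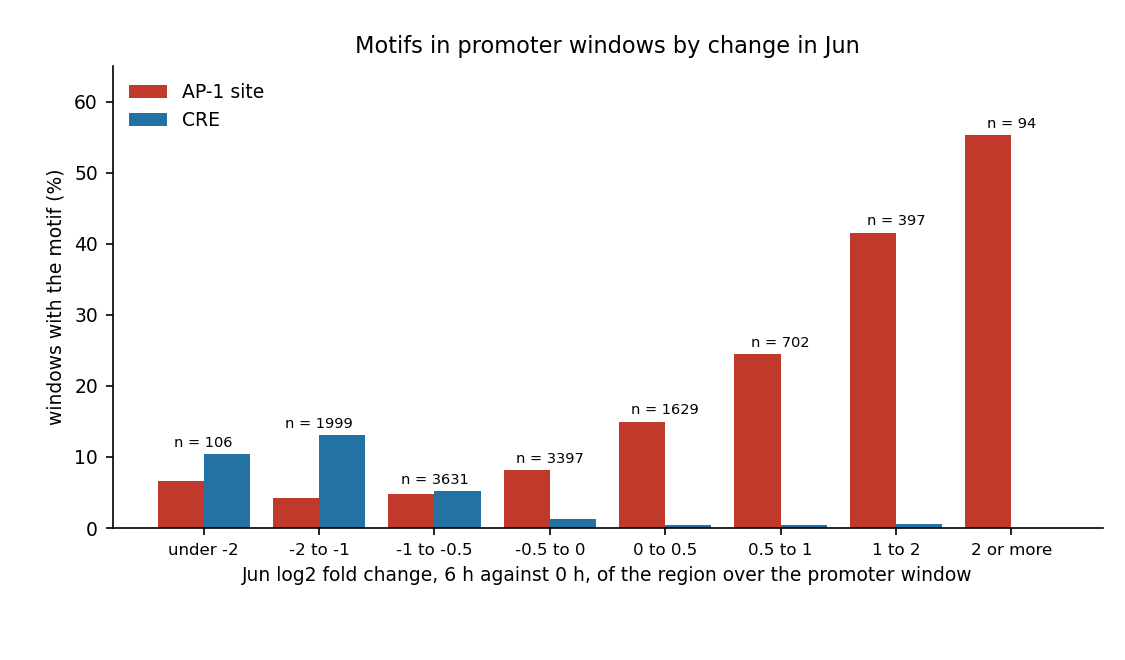
Percentage of RefSeq promoter windows that hold an AP-1 site (TGANTCA) or a CRE (TGACGTCA), by the log2 fold change of the Jun region over the window, with the number of windows in each bin. AP-1 sites are in 55.3% of the 94 windows in the highest bin and CREs in 0, while CREs are in 13.1% of the 1999 windows between -2 and -1.

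Base composition moved with the same division. The median GC content was 54.7% in higher, 62.3% in lower and 64.7% in not-called windows, so the shares were also taken within 3 equal classes of GC content, a step added after the data had been seen. In the class of lowest GC, AP-1 sites were in 49.1% of higher, 7.99% of lower and 20.7% of not-called windows. In the middle class the shares were 35.9%, 2.73% and 7.24%, and in the highest 14.6%, 2.03% and 3.84%. CREs were in 7.10%, 13.2% and 15.7% of lower windows in the 3 classes, and in 1.31%, 1.30% and 1.78% of windows not called. For the other motifs, shares are given for higher windows, lower windows and all 11955 windows with a tested region. The ETS site CCGGAAG was in 7.06%, 19.7% and 19.9% of them, so lower windows held it about as often as all tested ones. The GATA site AGATAA was in 8.87%, 7.17% and 6.98%, the E-box CACGTG in 6.05%, 9.25% and 9.58%, and the RUNX site TGTGGTT in 5.44%, 3.40% and 3.52%. The EGR site GCGTGGGCG was in 0.605%, 1.02% and 1.32%. The longer NF-E2 site, which contains an AP-1 site, was in few windows, 7 of 496 higher (1.41%), 3 of 3416 lower (0.0878%) and 0.293% of all tested. The CRE-like TGACATCA was in 3.02%, 3.04% and 2.08%.

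Regions are named below by the nearest protein-coding gene, which is not shown to be a target. Only gene spans were given, with no exons or introns, and each region is placed inside a span or at its distance from one. Coordinates are printed here as 1-based with both ends included, which need not be the convention of the deposited tables. The contigs of those tables match GRCh38.

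The gained regions with the highest fold changes were almost empty before PMA. Near CDH16 (a cadherin), the region chr16:66904491-66904907 held 2 and 0 counts before PMA and 38 and 53 after 6 h, which is 63.7 times as many after scaling (95% counting interval 17.1 to 534). Inside SRL (a calcium-binding protein of muscle), chr16:4211541-4211880 went from 2 and 1 to 29 and 59 counts, a ratio of 41.0 (13.6 to 203). Inside KLF15 (a zinc finger factor), chr3:126313109-126313727 went from 3 and 0 to 38 and 42 counts, a ratio of 37.3 (12.3 to 185). The region chr2:236769924-236770602, 188 kb from ACKR3 (a chemokine scavenger receptor), went from 4 and 0 to 37 and 70 counts and had a log2 fold change of 5.16. With 0 h replicate 1 left out, no count is left at 0 h in the CDH16, KLF15 and ACKR3 regions, and the fitted values become 9.82, 9.64 and 10.04, which depend on the prior count. With 0 h replicate 2 left out they are 4.93, 4.18 and 4.18. Both 6 h libraries were far above both 0 h libraries in each of these regions, but 0 h levels this low are measured by few counts.

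The other gained regions chosen by fold change had higher H3K27ac at 6 h. Of those above, the KLF15 region had an H3K27ac log2 fold change of 3.15. The CDH16, SRL and ACKR3 regions had no overlapping H3K27ac region that was tested. Inside SYNJ2 (a phosphoinositide phosphatase), chr6:158053276-158053635 rose from 0.146 and 0.860 to 16.6 and 17.9 CPM, and H3K27ac there from 0.511 and 0.685 to 20.2 and 22.2 CPM. Its log2 fold change of 5.06 became 4.31 without 0 h replicate 1 and 6.79 without 0 h replicate 2. Near COL6A2 (a collagen VI chain, 12.2 kb away), chr21:46084997-46085936 rose from 1.17 and 0.717 to 22 and 25 CPM, with a log2 fold change of 4.63 (SE 0.31, edgeR adjusted p = 1.44e-08). It stood at 28.7 and 27.4 CPM at 72 h. Regions near LHX1 (a homeobox factor) and SUPT20HL2 had log2 fold changes of 4.67 and 4.64, and H3K27ac rose by 4.63 and 5.75. The LHX1 region had no deposited Jun peak in any of the 4 libraries, in contrast to SYNJ2 and COL6A2, which had peaks in both 6 h libraries and in no 0 h library.

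The next 5 gained regions were chosen by smallest p. Near ZNF212 (a zinc finger protein, 5.31 kb away), chr7:149233403-149234343 rose from 11.1 and 7.17 to 112 and 144 CPM, with an SE of 0.24 on the log2 scale (edgeR adjusted p = 1.44e-08). H3K27ac in the same place rose from 0.625 and 0.632 to 66.8 and 64.7 CPM. Inside HIVEP3 (a large zinc finger protein that binds kappaB-like sites), chr1:41743383-41744517 rose from 7.73 and 5.88 to 71.7 and 82.7 CPM. Its H3K27ac rose from 0.114 and 0.105 to 45.1 and 45.4 CPM. Inside DRC9 (a subunit of the ciliary dynein regulatory complex), chr3:197907466-197909161 rose from 5.83 and 6.31 to 58.8 and 77.6 CPM and was at 89.0 and 88.2 CPM at 72 h. The region 194 kb from TBC1D22A (a Rab GTPase-activating protein), chr22:47370141-47371351, rose from 1.75 and 2.44 to 33.4 and 36.7 CPM. At chr12:75862557-75863904, 162 kb from PHLDA1 (an early-induced regulator of cell survival), Jun rose from 12.5 and 10.6 to 97.4 and 124 CPM. Among the 13 gained regions described, both 72 h libraries lay above both 6 h libraries near COL6A2, DRC9, ACKR3 and KLF15, and below them in the other 9.

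The lost regions with the largest fold changes were nearly cleared by 6 h. The region chr13:76029181-76029718, 169 kb from LMO7 (a LIM domain protein), fell from 61 and 46 counts to 1 and 0, 76.5 times fewer after scaling (95% counting interval 13.4 to 3048). Inside TRIM67 (a RING finger protein), chr1:231201975-231202346 fell from 122 and 129 counts to 3 and 2, a log2 fold change of -5.13. Near PLPPR1 (a phospholipid phosphatase-related membrane protein), chr9:101327201-101327613 fell from 58 and 44 counts to 2 and 0, a ratio of 36.4 (9.83 to 305). Near SIMC1 (a SUMO-interacting protein), chr5:176197211-176197595 fell from 52 and 41 counts to 0 and 2, a ratio of 33.2 (8.94 to 278). At chr10:124420460-124421043, 1.54 kb from OAT (ornithine aminotransferase), counts fell from 73 and 87 to 0 and 6. These values rest on few counts at 6 h: without 6 h replicate 1 the fitted values for LMO7 and PLPPR1 become -9.63 and -9.56, and without 6 h replicate 2 those for SIMC1 and OAT become -9.47 and -10.26. With the other 6 h library left out instead, the 4 values are -5.12, -4.08, -4.17 and -3.39. H3K27ac fell in all 5, by 4.09 on the log2 scale at LMO7, from 31.1 and 35.6 to 2.31 and 1.67 CPM.

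Inside ACSM1 (a medium-chain acyl-CoA synthetase), chr16:20673757-20674584 fell from 72.0 and 79.7 to 3.40 and 3.65 CPM, with a log2 fold change of -4.42 (SE 0.24, edgeR adjusted p = 2.39e-09). At chr19:21611858-21612668, 71.2 kb from ZNF429, Jun fell from 32.4 and 34.3 to 1.82 and 1.46 CPM and H3K27ac from 92.2 and 87.7 to 4.97 and 6.84 CPM. The LOC112268076 region (chr11:67826452-67827077) fell from 98 and 101 counts to 5 and 2, a log2 fold change of -4.32 that became -5.26 without 6 h replicate 1, and had no overlapping H3K27ac region. Inside FBXL20 (an F-box protein), chr17:39334152-39335405 fell from 103 and 98.2 to 11.6 and 11.5 CPM, and H3K27ac from 160 and 160 to 29.5 and 30.9 CPM. The SE of its log2 fold change was 0.21 (edgeR adjusted p = 1.44e-08). The region 52.6 kb from LRP2 (an endocytic receptor), chr2:169415160-169416036, fell from 48.3 and 50.2 to 3.40 and 4.74 CPM. Near CYP2A7 (a cytochrome P450 gene with close paralogs, so its reads are uncertain), chr19:40864370-40865390 fell from 71.8 and 79.4 to 7.72 and 9.49 CPM. The regions named for LOC107986837 (chr7:113142210-113143067), BDP1 (a subunit of the RNA polymerase III initiation factor, chr5:71388200-71388814) and ZSCAN5A (chr19:56321345-56322500) had log2 fold changes of -3.45, -3.52 and -3.32. All 14 lost regions had Jun peaks in both 0 h libraries, and 13 had none at 6 h, the exception being FBXL20 with a peak in 1 library.

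**Figure D3:**
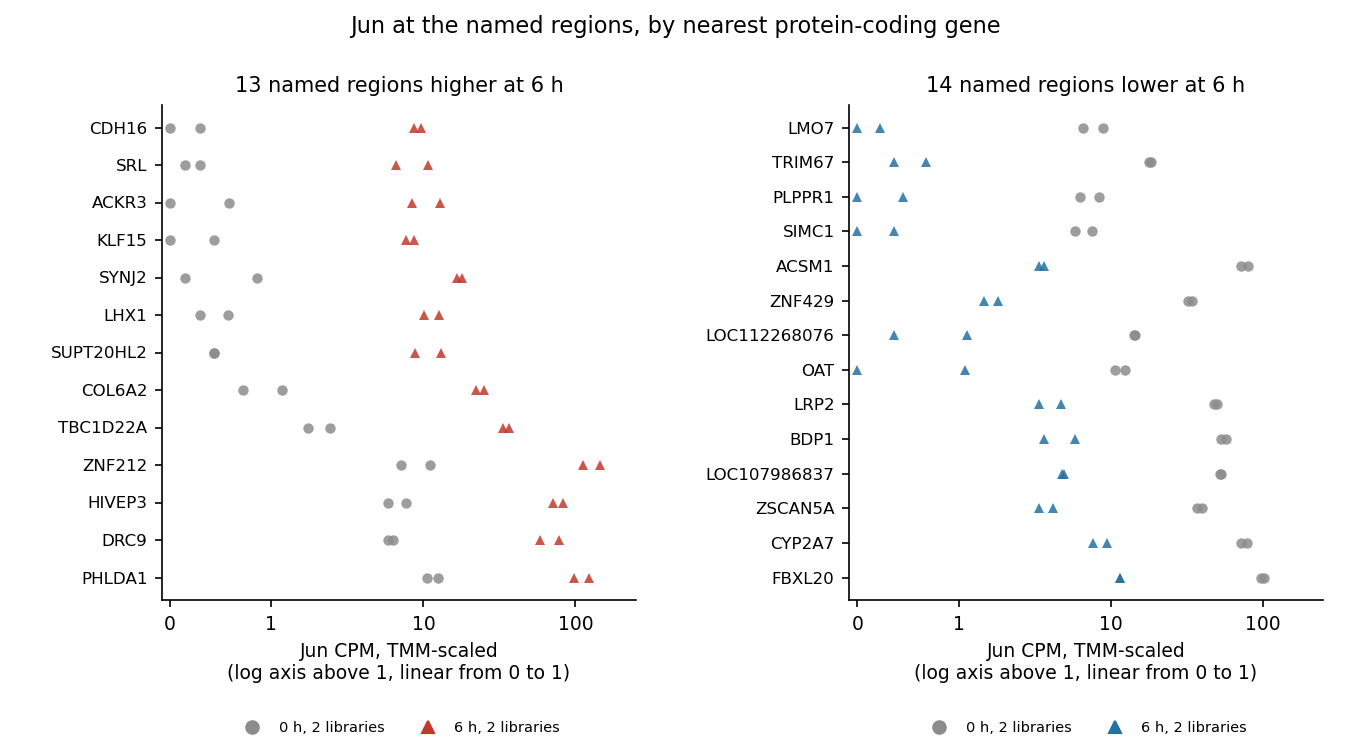
Jun CPM in each library for 13 gained and 14 lost regions chosen by rule, on an axis that is linear from 0 to 1 and logarithmic above; circles are the 2 libraries at 0 h and triangles the 2 at 6 h. The groups do not overlap in any of these regions, a condition of the rule, and gained regions start between 0 and 12.5 CPM.

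Regions called in the same direction and at most 20 kb apart were joined into loci, which gave 295 gained loci of at least 5 regions, holding 1842 regions, and 147 lost loci, holding 856. With a gap of 50 kb there were 598 and 459.

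The gained locus with the highest median among the 6 described was in the imprinted DLK1-MEG3 domain, which encodes arrays of noncoding RNA on the maternal chromosome. There all 14 regions tested between chr14:100967890-101001782, over MEG8 and SNORD114 small nucleolar RNA genes, were called higher. Their log2 fold changes ran from 1.67 to 4.24 with a median of 2.38, and summed Jun rose from 43.5 and 56.6 to 226 and 317 CPM. All 8 overlapping H3K27ac regions were called higher, with a median of 5.36. SNORD114 genes are related copies, so the assignment of reads among them is uncertain. Around CORO2B (a coronin, an actin-binding protein), 12 of 17 regions in chr15:68585959-68651168 were higher, and summed Jun rose from 23.2 and 22.5 to 87.2 and 106 CPM, with 143 and 144 CPM at 72 h. At IL4R (the interleukin-4 receptor chain) and NSMCE1, chr16:27245678-27321705 held 12 higher regions of 18, with a median of 2.24 and sums of 40.3 and 38.8 CPM at 0 h and 117 and 159 CPM at 6 h.

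Of the other 3 gained loci, each is named by its neighbouring genes. Beside ERRFI1 (a feedback inhibitor of the EGF receptor), 13 of 16 regions in chr1:8045899-8142214 were higher, and the sum rose from 119 and 128 to 305 and 386 CPM. Between KRR1 and PHLDA1, 13 of 15 regions in chr12:75724689-75790670 were higher, from 78.2 and 88.1 to 227 and 282 CPM. Beside TRIB1 (a pseudokinase that scaffolds protein degradation), 14 of 18 regions over 62.6 kb were higher, from 55.9 and 64.5 to 144 and 165 CPM. Every H3K27ac region that overlapped the called regions of these 3 loci was itself called higher, 9, 8 and 11 in the same order, with medians of 3.71, 3.77 and 4.27.

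Lost loci included several arrays of repeated genes. On chromosome 17, 18 of 22 regions in chr17:43239030-43300961, over 12 annotated small nuclear RNA copies near CCDC200, were lower, and the sum fell from 398 and 410 to 233 and 199 CPM. On chromosome 19, 11 of 17 regions in chr19:50082235-50139577, over SNAR noncoding RNA copies, were lower, from 185 and 191 to 99.9 and 89.4 CPM, while 1 of 5 H3K27ac regions was called lower. Both arrays hold near-identical copies, so the placement of their reads is uncertain. In a histone gene cluster (chr6:27753098-27838676, with H2BC13 and H3C10), 9 of 23 regions were lower, from 263 and 267 to 123 and 142 CPM.

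The other 3 lost loci lie outside such arrays. Over HBS1L (a translation rescue factor), chr6:135052630-135110499 had 9 lower regions of 11 and a median of -1.54, with sums of 173 and 201 CPM at 0 h and 74.2 and 84.1 CPM at 6 h. H3K27ac was called lower in 4 of 5 regions there, with a median of -1.80. At PDIK1L, next to TRIM63, chr1:26070174-26126780 had 9 of 14 regions lower, from 345 and 365 to 151 and 174 CPM. Near ATF7IP2 (a partner of the SETDB1 methyltransferase), chr16:10308941-10362878 had 8 of 12 lower with a median of -2.01, from 107 and 112 to 31.8 and 31.9 CPM. This locus stood at 64.0 and 59.5 CPM at 72 h, above its 6 h level, whereas the other lost loci were lower at 72 h than at 6 h.

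**Figure D4:**
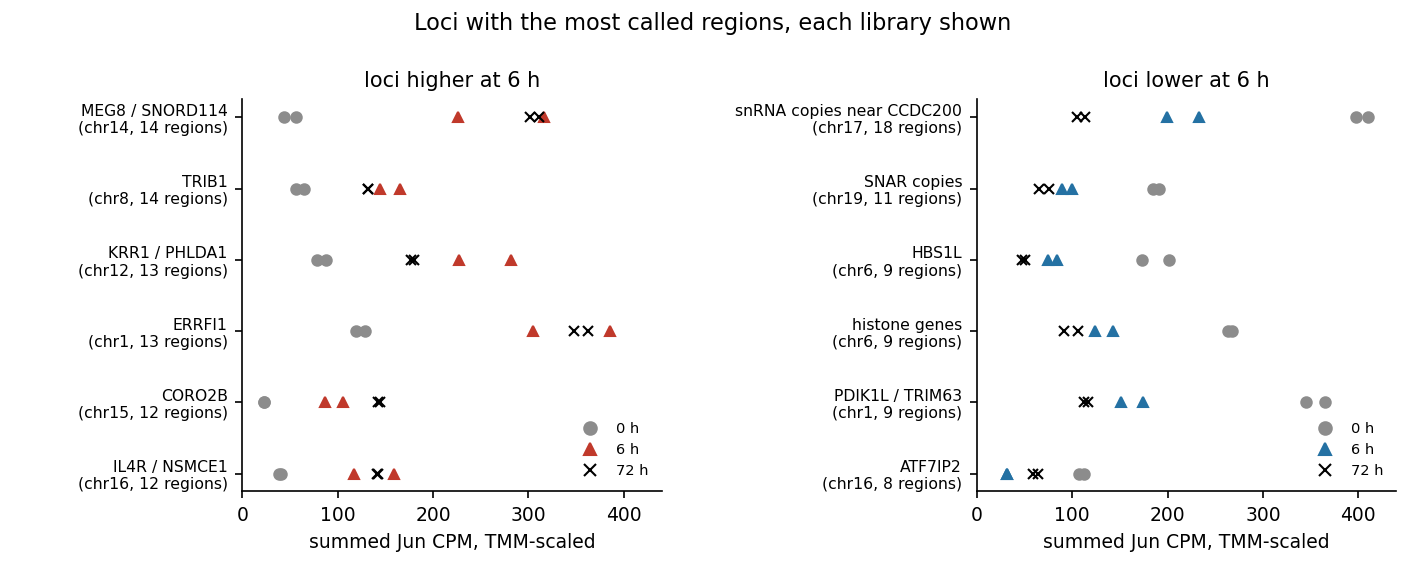
Summed Jun CPM of the called regions in the 6 gained and 6 lost loci with the most called regions, one symbol per library at 0, 6 and 72 h. In each locus both 6 h libraries lie outside the range of the 0 h libraries, which follows from how the loci were chosen.

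Jun at 14 lists of genes was then described by all tested regions within 10 kb of each gene's span, beside the 13.2% higher and 12.2% lower of all regions tested. For each gene the region with the highest mean level is given as its lead region. Calls depended on level, so the 13.2% and 12.2% are no background for counts of lead regions. In the fifth of all tested regions with the highest mean CPM, 19.5% were higher and 29.4% lower. Scaling to total counts moves every list upward, so its median is given beside the main one.

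Among regions at AP-1 subunit genes, 15 of 86 were higher (17.4%) and 13 lower (15.1%), with a median of 0.03 (0.24 with total counts), while 6 of the 14 lead regions were lower and 1 higher. FOSB, a Fos family member, showed both directions within a few kb. Its promoter region chr19:45467385-45468053 fell from 71.2 and 72.8 to 30.2 and 34.7 CPM, a log2 fold change of -1.15 (SE 0.19). A second region of the gene, chr19:45470139-45470644, rose from 1.46 and 2.72 to 15 and 20.3 CPM, a log2 fold change of 3.08 (SE 0.31), and was singled out after its values were seen. H3K27ac over the FOSB promoter region rose by 2.22. ATF3, a stress-induced partner of Jun, also had regions called in both directions: its lead region fell from 60.2 and 69.7 to 28.4 and 41.6 CPM (a call lost without 0 h replicate 2, edgeR adjusted p = 0.054), and another region (chr1:212600923-212601329) rose from 2.63 and 2.58 to 11.3 and 10.0 CPM. The lead region of BATF3 rose from 2.19 and 1.58 to 4.99 and 6.57 CPM, and those of FOS and JUNB had log2 fold changes of -0.58 and 0.22 and were not called (edgeR adjusted p = 0.094 and 0.52).

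At early response genes, 18 of 114 regions were higher (15.8%) and 27 lower (23.7%), with a median of -0.15 that turned to 0.05 with total counts. KLF6 and KLF2 are zinc finger factors induced early by many signals. At the KLF6 promoter (chr10:3785139-3785685), Jun fell from 57.0 and 61.1 to 11.3 and 16.4 CPM. The KLF2 region chr19:16330313-16331481 rose from 10.5 and 13 to 32.7 and 40.5 CPM, and H3K27ac there by 3.53. NR4A1, an orphan nuclear receptor, lost Jun at its lead region, from 45.9 and 40.6 to 8.85 and 18.1 CPM, while H3K27ac over it rose by 2.98, and 4 of its 12 regions were called higher. At BTG2, an antiproliferative gene, 5 of 6 regions were lower, and the promoter went from 42.6 and 53.0 to 14.3 and 21.3 CPM.

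MAPK feedback genes, whose products dephosphorylate or restrain the kinases, had 18 higher and 17 lower of 77 regions, with a median of -0.11 (0.09 with total counts). DUSP16, DUSP10 and DUSP8 lost Jun at their promoters with log2 fold changes of -2.08, -1.65 and -1.65. At DUSP10 the values were 92 and 94.3 CPM at 0 h and 30.2 and 29.2 CPM at 6 h. H3K27ac rose over all 3 of these promoters, by 0.68, 0.35 and 1.56. DUSP2 gained Jun beside the gene, from 5.25 and 6.02 to 15.2 and 14.6 CPM.

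Genes for PMA receptors and their kinases had 56 higher and 34 lower of 303 regions, with a median of 0.35 (0.55 with total counts). The protein kinase C gene PRKCH had 7 higher and 2 lower of 24 regions, and its lead region rose from 10.2 and 9.46 to 17.5 and 24.5 CPM. PRKCA had 13 higher and 8 lower of 55, while its lead region had a log2 fold change of -0.94, a call lost without 0 h replicate 2 (-0.74, edgeR adjusted p = 0.059). The lead region of PRKD1 (protein kinase D) fell from 10.9 and 11.9 to 2.95 and 2.01 CPM. NF-kappaB genes had 13 higher and 6 lower of 63 regions, with a median of 0.21 (0.40 with total counts) that fell to -0.04 when only the 4 libraries at 0 and 6 h were fitted. Near TNFAIP3, a deubiquitinase that limits the pathway, chr6:137863096-137863797 fell from 90.0 and 98.8 to 23.8 and 33.4 CPM and H3K27ac by 1.16. Near NFKBIZ, which encodes a nuclear regulator of the same pathway, Jun fell from 11.4 and 11.3 to 2.72 and 1.46 CPM. Both are lead regions, of which 5 in this list were lower and 1 higher. TNIP1, whose lead region was not called, had 6 of its 13 regions higher and 0 lower.

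Erythroid genes had more regions called lower than higher. Regulator genes had 8 higher (7.62%) and 30 lower (28.6%) of 105 regions, with a median of -0.53 (-0.33 with total counts). An H3K27ac region overlapped 80 of these Jun regions and was called higher at 5 and lower at 61. Over all 71019 tested Jun regions with an H3K27ac region, it was called higher at 27085 and lower at 19203. At IKZF1, a zinc finger regulator of blood lineages, Jun fell from 44.6 and 40.7 to 12.5 and 18.8 CPM, and H3K27ac by 1.58. At MYB, a factor of progenitor growth, it fell from 29.2 and 35.5 to 10.7 and 14.4 CPM and H3K27ac by 1.66. The lead region of KLF1, the erythroid Krüppel-like factor, lies over the promoter of the neighbouring GCDH and fell from 18.7 and 17.9 to 4.54 and 8.39 CPM. ZFPM1, which encodes a GATA1 partner, had 6 of 16 regions lower and none higher.

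Heme, iron and red cell membrane genes had 13 higher and 51 lower of 152 regions, with a median of -0.44 (-0.24 with total counts). Of these Jun regions, 111 overlapped an H3K27ac region, which was called higher at 17 and lower at 71. Near SLC4A1, the anion exchanger of the red cell membrane, chr17:44245160-44246453 fell from 38.8 and 41.3 to 6.36 and 6.57 CPM, a log2 fold change of -2.63 (SE 0.23, edgeR adjusted p = 1.2e-07). At SLC25A37, the mitochondrial iron importer, the lead region fell from 29.3 and 33.3 to 11.8 and 13.1 CPM. Near HBZ, the embryonic alpha-like globin, Jun fell from 12.8 and 11.3 to 3.63 and 2.55 CPM and H3K27ac by 1.89. The GYPB promoter (a glycophorin gene with near-identical paralogs, so its reads are uncertain) fell from 23.2 and 30.7 to 5.45 and 12 CPM. Its log2 fold change of -1.59 became -2.39 without 6 h replicate 2.

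Adhesion and secreted-factor genes had more regions called higher than lower. Integrin and adhesion genes had 39 higher and 14 lower of 145 regions, with a median of 0.40 (0.60 with total counts). CD44, the hyaluronan receptor, accounted for 10 of these gains among its 15 regions, with none lower. Its lead region chr11:35214570-35215255 rose from 3.79 and 3.15 to 22 and 29.7 CPM, a log2 fold change of 2.90 (SE 0.27, edgeR adjusted p = 2.3e-07), and H3K27ac there by 6.00. VCL (vinculin, which links integrins to actin) moved the other way at its lead region, from 83.6 and 88.1 to 38.1 and 43.8 CPM. The lead region of ITGA5 (the alpha chain of a fibronectin receptor) had a log2 fold change of 0.69, a call lost with DESeq2 (adjusted p = 0.052), without 0 h replicate 2 (0.17), without 6 h replicate 2 (0.12) and without 72 h replicate 2 (0.087).

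Cytokine and growth factor genes had 23 higher and 9 lower of 92 regions, with a median of 0.43 (0.62 with total counts). LIF, a cytokine of the interleukin-6 family, had a region at chr22:30250421-30250946 that rose from 1.46 and 1.00 to 9.76 and 14.4 CPM, and H3K27ac there by 5.80. At its neighbour OSM, of the same family, Jun rose from 3.65 and 3.15 to 12.9 and 15.9 CPM. Near the chemokine gene CXCL3, Jun rose from 4.38 and 7.17 to 19.5 and 29.9 CPM and stood at 7.89 and 7.60 CPM at 72 h. The CXCL2 region, nearer to MTHFD2L, had a log2 fold change of 1.84 that fell to 1.16 without 6 h replicate 2. Matrix protease and plasminogen genes had 12 higher and 4 lower of 51 regions, with a median of 0.19 (0.39 with total counts). Of their 11 lead regions 1 was higher and 4 were lower. Among the latter, the TIMP3 promoter (a metalloprotease inhibitor) fell from 5.69 and 6.31 to 2.04 and 0.730 CPM.

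Megakaryocyte and platelet genes had 30 higher (15.1%) and 21 lower (10.6%) of 199 regions, with a median of -0.03 (0.17 with total counts). The balance depended on scaling and on single libraries: it was 37 higher and 13 lower with total counts, 38 and 12 with the peak-based factors, 26 and 12 without 0 h replicate 1, 33 and 17 without 6 h replicate 1, and 16 and 22 without 6 h replicate 2. VWF, the platelet-binding von Willebrand factor, had 8 higher of 13 and none lower, and its lead region rose from 3.50 and 5.88 to 13.6 and 17 CPM. CD9, a tetraspanin of platelets, had 6 higher of 15 and none lower, but the call on its lead region, 1.56, was lost without 0 h replicate 2 (1.02, edgeR adjusted p = 0.12) and without 6 h replicate 1 (1.28, adjusted p = 0.057), and became 2.43 without 0 h replicate 1. Near GP6, the platelet collagen receptor, Jun fell from 50.9 and 51.7 to 9.76 and 19.9 CPM at a region 4.58 kb from NLRP2. The GP1BB promoter fell from 52.4 and 54.2 to 35.4 and 25.2 CPM, with H3K27ac lower by a log2 value of -1.28.

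The remaining lists were cytoskeleton, cell cycle and ribosomal protein genes. Cytoskeleton genes had 23 higher and 25 lower of 122 regions and a median of 0.08 (0.27 with total counts). TPM4, a tropomyosin, rose from 18.4 and 18.8 to 39.0 and 53.8 CPM beside the gene, while MYH10, a nonmuscle myosin, fell from 32.5 and 37.6 to 16.1 and 13.7 CPM at its promoter. Cell cycle genes had 6 higher and 23 lower of 94, with a median of -0.11 that turned to 0.09 with total counts. An H3K27ac region overlapped 66 of these Jun regions and was called higher at 17 and lower at 28. CCND3 (cyclin D3) had 8 lower and 3 higher of 19 regions, and its lead region fell from 82.8 and 78.8 to 23.8 and 29.2 CPM. The lead region of CDK4 lies over the TSPAN31 promoter and fell from 69.3 and 67.1 to 13.6 and 18.6 CPM. Ribosomal protein genes had 22 higher and 66 lower of 298 regions, with a median of -0.26 (-0.07 with total counts, where 29 were higher and 40 lower). An H3K27ac region overlapped 215 of these Jun regions and was called higher at 19 and lower at 140. Frequent lower calls in H3K27ac were therefore not particular to the erythroid lists.

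Several of these counts moved by more than 1.5 times with the tool or with 1 library. DESeq2 called 20 higher and 12 lower integrin and adhesion regions, 28 and 24 at PMA receptor and kinase genes, 7 and 10 at AP-1 subunit genes, and 10 and 40 at ribosomal protein genes. Without 6 h replicate 2 there were 22 higher and 17 lower integrin and adhesion regions, and 15 and 11 at cytokine genes. Without 0 h replicate 2 there were 2 higher and 20 lower erythroid regulator regions, 4 and 11 at cell cycle genes, and 13 and 38 at ribosomal protein genes. Without 0 h replicate 1 there were 8 higher and 8 lower AP-1 subunit regions and 7 and 5 at NF-kappaB genes. Heme, iron and red cell membrane genes had between 35 and 48 lower regions when 1 library was left out, and 6 to 15 higher.

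**Figure D5:**
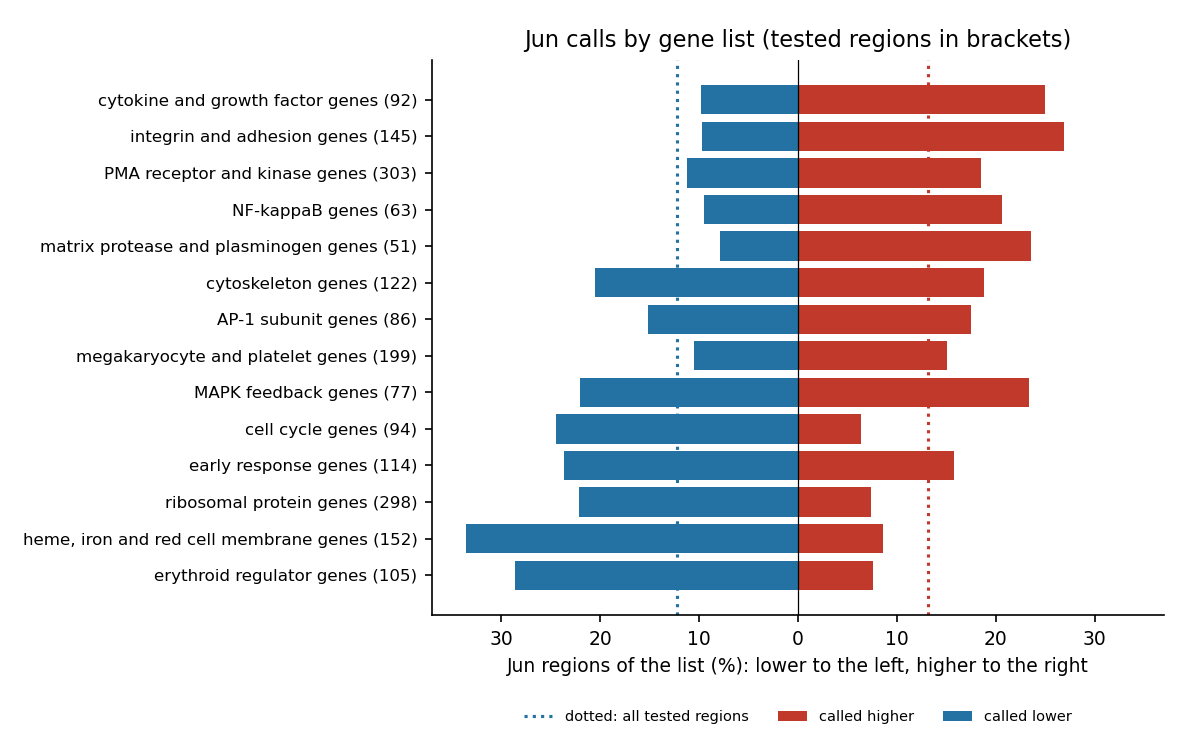
Percentage of tested Jun regions called higher (right) or lower (left) at 6 h for each of 14 gene lists, with the number of regions in brackets. Dotted lines mark the 13.2% higher and 12.2% lower of all regions tested; erythroid regulator genes have 7.62% higher and 28.6% lower, and integrin and adhesion genes 26.9% higher and 9.66% lower.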

How the data were processed

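Jun was measured by CUT&RUN in K562 cells at 0, 6 and 72 h of 25 nM PMA. The deposited Jun and H3K27ac tables give, for every region and library, unnormalized counts made by the authors, and the Jun table also the authors' log2 fold change and adjusted p-value. Peak lists, 1 per library, carry the authors' −log10 q-values, and every deposited peak was used. Per the submitters' processing notes, Trim Galore 0.4.3, BWA 0.7.17, SAMtools 1.9, deepTools 3.0.1, MACS2 and bedtools 2.26 were used, and hg19 and hg38 are both named. Region building and the peak caller's control are not given in the sources used here. No file header names a build, and regions on chromosome 20 reach position 64329500, so the RefSeq table of GRCh38.p14 was used.

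Regions on other contigs (1012) were left out, and 5772 regions fell to the filter on low counts. The fit was edgeR 4.0.16 in R 4.3.3 (filterByExpr, TMM, glmQLFit and glmQLFTest) over the 6 Jun libraries, without a replicate block, with Benjamini-Hochberg adjustment over the whole table at 0.05. The SE is the log2 fold change divided by the square root of F. The code was tested on simulated counts. H3K27ac was fitted the same way and joined by overlap of at least 1 bp. GenomicRanges 1.54.1 found the regions with a peak in each library for one scaling alternative. Ratios of groups with 3 or fewer counts carry exact binomial 95% intervals, which cover counting error only.

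Members and lists were chosen with earlier results of these data known. Named regions had an adjusted p under 0.05, mean CPM at or above the median and groups that did not overlap: the 8 highest and 8 lowest log2 fold changes, then 6 per direction by smallest p, at most 1 per nearest gene. The 6 loci with most regions per direction and 2 to 4 called lead regions per list by smallest p were added. Withheld items are not reported here and were not replaced. Promoters shown were chosen by smallest p among windows with the motif upstream of the start. Alternatives were DESeq2 1.42.0, other scalings and filters, fewer libraries, a replicate block and other gaps.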

Additional observations from a re-analysis of the deposited data

How the results depend on the processing

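Calls of the Jun comparison kept their direction under all alternatives run, in that no region was called in opposite directions, while their number and balance moved. DESeq2 called 22019 regions, 48.0% of them higher, against 33490 and 51.9%. Scaling to total counts gave 66.9% higher, and factors based only on regions that have a peak in all libraries 67.1%. Loess offsets gave 47.4%, a mean count of at least 50 gave 52.6%, and the 4 libraries at 0 and 6 h alone 45.6%. Leaving out 1 library at a time gave 22356 to 32577 calls and 44.4% to 54.1% higher, the fewest calls without 0 h replicate 2. The share of CREs in lower windows was 15% with DESeq2, 15.8% with total counts, 15.5% with the peak-based factors and 11.6% to 14.9% with 1 library left out. The share of AP-1 sites in higher windows was 36.6% with the peak-based factors and 40.5% to 45.5% with 1 library left out. Joining regions across 50 kb gave 598 gained and 459 lost loci. The count of H3K27ac calls stayed within 1.5 times under each alternative. Deviations of same-numbered libraries correlated at 0.053 between 0 and 6 h, which with 2 libraries per time cannot show whether the samples were paired. A fit with the replicate block called 32222 regions, 52.2% higher, of which 31828 were shared. Of the lead regions described, those of ATF3, ITGA5, CD9 and PRKCA lost their call under at least 1 alternative. Counts limit what can be said of nearly empty regions, where 1 count is worth up to 0.227 CPM.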

Other observations

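Loss of Jun was unevenly spread over chromosomes. Chromosome 19 had 18.3% of its tested regions lower, and chromosome 13 had 8.42%, against 12.2% of all.

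The authors' deposited table labels regions by time course, and these labels were not used. Among 224 regions labelled upEarly, 46.0% had a log2 fold change at 6 h above 0 in the authors' deposited table, and 52 were called higher and 73 lower by edgeR here. Among 4402 labelled downEarly, 53.2% were above 0, and 1452 were called higher and 1243 lower. The authors' log2 fold change itself correlated with the edgeR value at 0.919 over the tested regions, which are not independent. The adjusted p-values for 6 and 72 h are equal in all 138731 rows of the authors' deposited table.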
